A study of Homo sapiens with 16 samples.

Results

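Liver X receptors (LXRs) and the genes they are best known to drive were followed through 4 groups of RNA-seq libraries. The set holds 7 of the 56865 genes summed: the receptor genes NR1H3 (LXR alpha) and NR1H2 (LXR beta), the sterol exporters ABCA1 and ABCG1, the ubiquitin ligase gene MYLIP (also called IDOL), the lipogenic transcription factor gene SREBF1 and the phospholipid acyltransferase gene LPCAT3. They were taken by name, as textbook LXR genes, but earlier results of these data were known when they were chosen. As background, LXRs are nuclear receptors that bind oxysterols and other sterol intermediates, pair with retinoid X receptors and sit on DNA repeats spaced by 4 bases. When sterols are plentiful they switch on export of cholesterol, degradation of lipoprotein receptors through MYLIP, and lipogenesis through the SREBP-1c form of SREBF1, whereas SREBP-2 switches on cholesterol synthesis and uptake when sterols are scarce. The receptors and these targets are known from macrophages, liver and many cultured lines.

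The cells were NCI-H1299, which comes from a human lung carcinoma (non-small cell) and has no p53, and a derivative of it with stable expression of the p53 mutant Y220C. Cultures were exposed for 24 h to DMSO, the vehicle, or to 10 µM MS78, a bifunctional compound designed to recruit the histone acetyltransferases CBP and p300 to the Y220C form of p53. Below, Null and Y220C stand for the lines and DMSO and MS78 for the treatments, with 4 libraries in each of the 4 groups. Medium of the Y220C line held 500 µg/mL G418 and that of the p53-null line held none, so transgene, selection drug and line cannot be told apart. The labels do not say whether the stable line is a single clone, which promoter drives the transgene, or whether replicates were separate cultures. P-values therefore reflect only how far these libraries spread, and part of that may be technical. Libraries held 20.3 M to 27.7 M estimated reads. The summed level of 6 epithelial and carcinoma markers was 4142 to 6128 CPM (read counts scaled to a common library total). Most of it was VIM, which is not specific to epithelium, at 3526 to 5611 CPM. KRT8 held 166 to 350.3 CPM and KRT18 287 to 495 CPM, while EPCAM, CDH1 and KRT19 did not exceed 2.58 CPM. Of 8 macrophage markers, 7 stayed under 10 reads in all libraries, C1QA was at 0 reads, and CD68 was the exception.

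Of the 16 libraries 8 carried leukocyte transcripts, and they were spread unevenly over the treatments. PTPRC, which encodes the leukocyte surface protein CD45, had 55 to 99 reads in these 8 (DMSO replicate 1 and MS78 replicates 2, 3 and 4 of each line) and 0 or 1 in the other 8. The summed level of 13 leukocyte markers was 46.0 to 115 CPM in the former and 0.302 to 0.884 CPM in the latter. Results of the 7 genes are therefore also given within these sets of libraries where a call was lost there.

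The promoter letters are shown for the 4 genes that changed most clearly, to let the motifs be seen beside the values that follow. RefSeq windows (GRCh38.p14, from 250 bases before to 50 after a start) matched 6 of the 7 genes, and ABCG1 was not matched. The LXR element was searched as AGGTNA, 4 bases of any kind and NGGTNA, the sterol element as TCACNCCAC, the E-box as CACGTG, the CCAAT box as CCAAT and the GC box as GGGCGG. ABCA1, at chr9:104781002-104928237 on the minus strand, was the only member whose window held an LXR element. That motif was found in 0.225% of all 35116 windows, a sterol element in 1.13%, an E-box in 7.26%, a CCAAT box in 34.6% and a GC box in 45%. In the lines below, which read 5′ to 3′ on the gene's own strand, capitals mark the LXR element in the stretch chr9:104928202-104928231 of ABCA1, the E-box and GC boxes in chr9:104928238-104928405 farther upstream of ABCA1, GC boxes in chr17:17837003-17837236 of SREBF1 (minus strand), and CCAAT and GC boxes in chr6:16128836-16129085 of MYLIP (plus strand) and chr12:7018511-7018726 of LPCAT3 (minus strand), with motifs of the other strand in capitals as they read here.
ABCA1 LXR element: caggcttTGACCGATAGTAACCTctgcgct
ABCA1 upstream: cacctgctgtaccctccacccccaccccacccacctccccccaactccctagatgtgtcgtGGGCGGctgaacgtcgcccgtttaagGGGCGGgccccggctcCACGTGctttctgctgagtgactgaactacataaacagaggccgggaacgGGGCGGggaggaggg
SREBF1 exon 1a start: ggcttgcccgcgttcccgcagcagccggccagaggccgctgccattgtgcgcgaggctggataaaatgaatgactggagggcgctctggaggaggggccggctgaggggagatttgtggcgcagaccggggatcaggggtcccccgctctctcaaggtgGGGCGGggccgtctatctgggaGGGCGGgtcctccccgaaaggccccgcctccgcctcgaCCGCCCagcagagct
MYLIP: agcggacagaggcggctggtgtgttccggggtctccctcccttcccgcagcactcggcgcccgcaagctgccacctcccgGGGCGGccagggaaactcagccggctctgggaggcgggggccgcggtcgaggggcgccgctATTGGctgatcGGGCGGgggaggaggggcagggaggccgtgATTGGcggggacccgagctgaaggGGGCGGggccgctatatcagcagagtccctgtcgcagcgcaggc
LPCAT3: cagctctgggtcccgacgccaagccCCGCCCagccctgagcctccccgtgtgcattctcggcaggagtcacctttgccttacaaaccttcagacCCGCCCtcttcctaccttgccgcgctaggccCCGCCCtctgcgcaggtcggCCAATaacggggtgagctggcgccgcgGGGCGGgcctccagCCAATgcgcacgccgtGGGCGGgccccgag

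The LXR element of ABCA1 began 69 bases before the RefSeq start of its window and read in the opposite direction to the gene. The gene span given above begins farther upstream, so the element lies within that span. No window of the 6 matched genes held the sterol element as spelled here, which says only that these letters are not in these windows. SREBF1's window lies at its upstream start, exon 1a, and not at the start of the SREBP-1c form. MYLIP had 2 CCAAT boxes and 3 GC boxes, and LPCAT3 had 3 and 5. The LPCAT3 CCAAT box at position -29 from the start site lies beyond the letters shown.

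With MS78 ABCA1 fell in both lines, SREBF1 fell slightly in both, LPCAT3 rose in both, and MYLIP fell in p53-null cells. All 7 genes passed the filter on low counts, ABCG1 only through the Null DMSO libraries, which were its only ones with 10 reads or more. Since a gene kept for its level in 1 group has to differ from the others, counts are also given over the other 6 genes. In p53-null cells 5 of the 7 (71.4%) had an adjusted p under 0.05, against 28.1% of the 15687 genes tested: LPCAT3 rose (14.8% of genes did), and ABCA1, MYLIP and SREBF1 fell (13.3% did), and ABCG1 was the fifth. Over the other 6 genes it was 4 (66.7%). The groups did not overlap for those 4, and 29.3% of all genes had groups that did not overlap. In Y220C cells 5 of 7 (5 of the other 6) were past the threshold, against 48.5% of genes, with LPCAT3 and NR1H2 higher (24.9% of genes) and ABCA1, SREBF1 and NR1H3 lower (23.6% of genes). The groups did not overlap for 4 of them, and 41.3% of all genes had groups that did not overlap. Without ABCG1 the median log2 fold change was -0.12 in p53-null cells (0.01 over all genes) and -0.08 in Y220C cells (-0.01 over all genes). As these are bulk samples, fewer cells expressing a gene and less RNA per cell cannot be told apart.

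**Figure D1:**
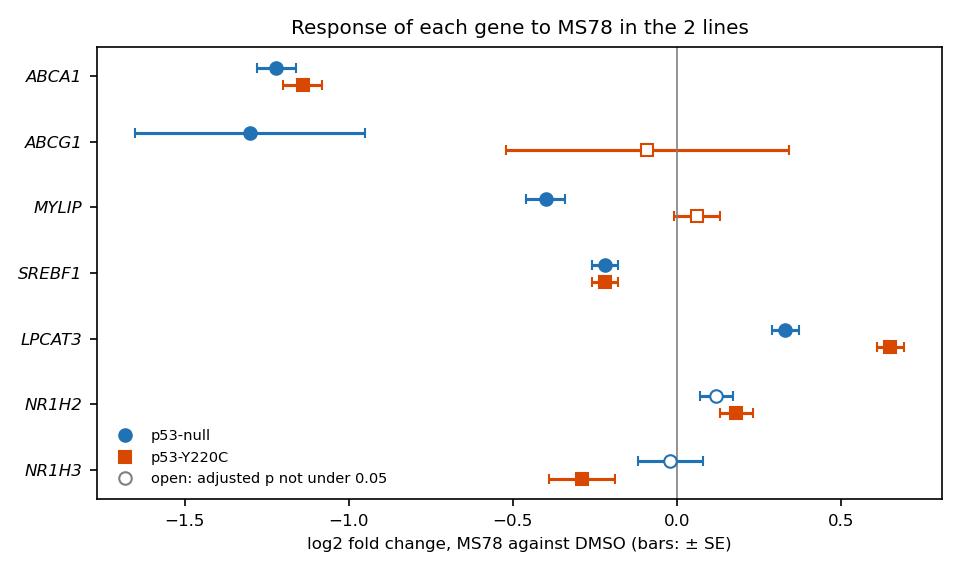
Log2 fold change of each of the 7 genes with MS78 against DMSO (x axis, bars ± SE) in p53-null cells (circles) and p53-Y220C cells (squares), with open symbols where the adjusted p was not under 0.05. ABCA1 sits near -1.2 in both lines, whereas MYLIP is at -0.40 in p53-null cells and at 0.06 in Y220C cells.

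ABCA1, which moves cholesterol and phospholipid from the plasma membrane to apolipoprotein A-I, had the largest well-counted decrease of the set. Null DMSO libraries held 34.5, 34.9, 36.4 and 37.8 CPM and Null MS78 libraries 14.7, 15.3, 15.5 and 16.2 CPM. Y220C DMSO libraries held 26.8, 28.9, 29.6 and 32.3 CPM and Y220C MS78 libraries 12.2, 13.05, 13.5 and 14.7 CPM. Every MS78 library was below every DMSO library of its own line and of the other line. The fall was 2.33-fold in p53-null cells, from a mean of 35.9 ± 1.5 CPM to 15.4 ± 0.61 CPM (± SD, n = 4), a log2 fold change of -1.22 (SE 0.06, adjusted p = 2.81e-12). In Y220C cells it was 2.20-fold, from 29.4 ± 2.3 CPM to 13.4 ± 1.0 CPM, a log2 fold change of -1.14 (SE 0.06, adjusted p = 7.46e-12). The responses of the lines differed by 0.08 (SE 0.09, adjusted p = 0.558), which does not show that they were alike. Within the libraries with PTPRC reads the log2 fold changes were -1.18 and -1.11, and within those without they were -1.23 and -1.13, similar in either set. In each line these values rest on only 1 DMSO library with PTPRC reads and only 1 MS78 library without. Of 27 tested genes whose window held an LXR element, 6 fell and 2 rose in p53-null cells, with ABCA1 the most lowered and CEP85 next at -0.48. In Y220C cells 6 fell and 5 rose, and KAT14, at -0.38, followed ABCA1. The median over those 27 genes was 0.02 and -0.06, and 29.6% and 40.7% of them were called, close to the shares of all genes.

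ABCG1 loads cholesterol onto HDL particles and was near the detection limit in these cells. It had 16, 19, 15 and 18 reads in Null DMSO and 6, 9, 5 and 8 in Null MS78. In the Y220C line it had 4, 5, 6 and 6 reads with DMSO and 4, 8, 2 and 4 with MS78. Only the Null DMSO libraries stood above the rest, and the other 3 groups overlapped. The means in p53-null cells were 0.715 ± 0.074 CPM with DMSO and 0.288 ± 0.083 CPM with MS78 (n = 4), a log2 difference of -1.30 (SE 0.35). That comparison is given as a description, because the filter kept ABCG1 for its level in the same Null DMSO libraries. In a fit with no filter on low counts the value was -1.31 and missed the threshold (adjusted p = 0.0563), as it did with length-scaled TPM (-0.50, adjusted p = 0.552), within the libraries with PTPRC reads (-1.17, adjusted p = 0.354) and without them (-1.61, adjusted p = 0.189). In Y220C cells the value was -0.09 (SE 0.43, adjusted p = 0.895), a difference not detectable at this depth. The difference between the lines' responses, 1.21 with an SE of 0.56, missed the threshold (adjusted p = 0.117).

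**Figure D2:**
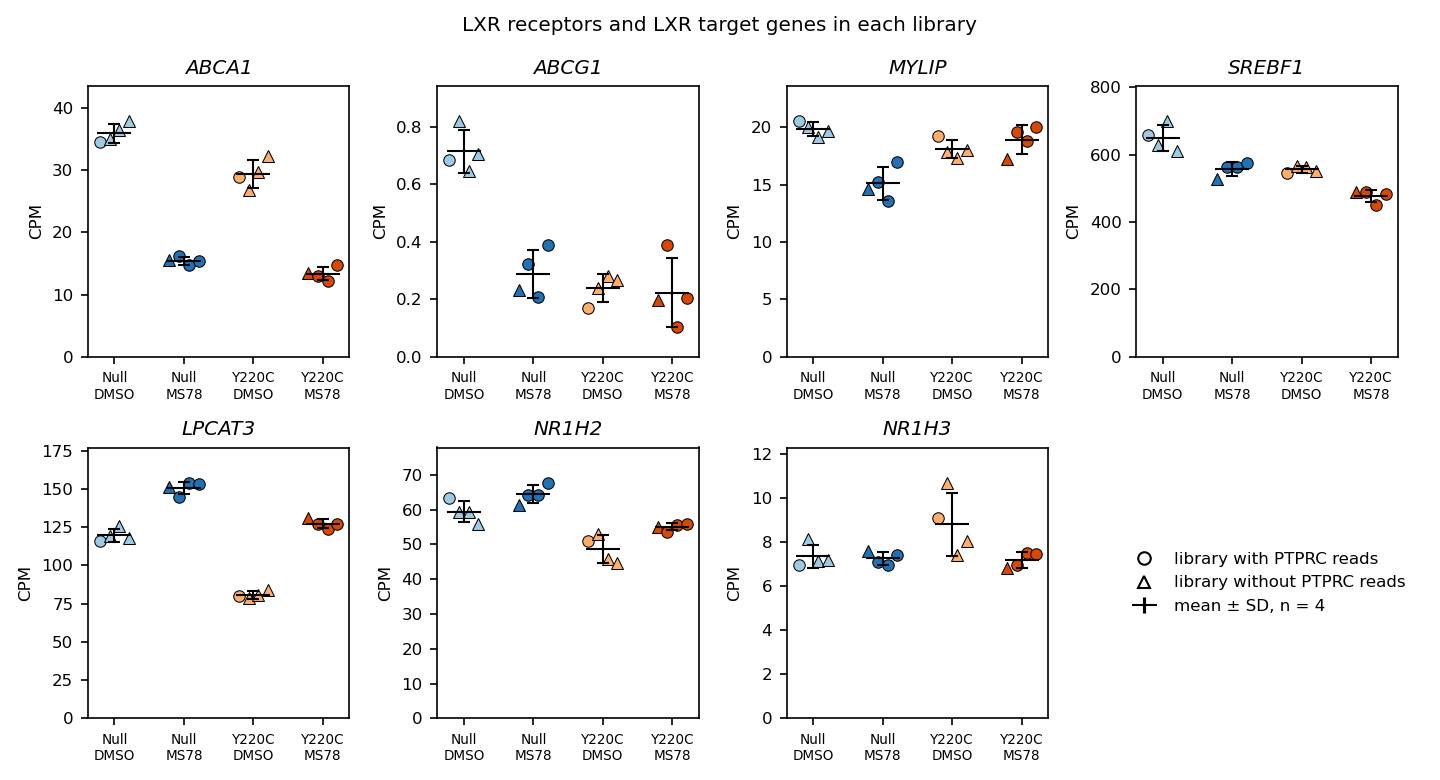
CPM of each gene (y axis from 0, in a panel per gene) in each of the 16 libraries by group, with circles for libraries with PTPRC reads, triangles for those without, and bars for the mean ± SD of 4. ABCA1 of all MS78 libraries lies between 12.2 and 16.2 CPM, below all DMSO libraries, and LPCAT3 of each MS78 group lies above the DMSO group of the same line.

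MYLIP encodes a ubiquitin ligase that sends lipoprotein receptors to the lysosome, and its response differed between the lines. Null DMSO libraries held 20.5, 20.01, 19.1 and 19.7 CPM and Null MS78 libraries 14.6, 15.2, 13.6 and 16.97 CPM. Y220C DMSO libraries held 19.2, 17.8, 17.3 and 18.0 CPM and Y220C MS78 libraries 17.2, 19.6, 18.8 and 20.04 CPM. The null groups did not overlap, and the Y220C groups did. In p53-null cells MYLIP fell 1.32-fold, from 19.8 ± 0.58 to 15.1 ± 1.4 CPM (n = 4; log2 fold change -0.40, SE 0.06, adjusted p = 7.21e-05). In Y220C cells the log2 fold change was 0.06 (SE 0.07, adjusted p = 0.434), and it was -0.004 under upper-quartile scaling. The difference between the 2 responses, 0.46 (SE 0.09), passed the test (adjusted p = 0.000805). It was as large within the libraries with PTPRC reads (0.47) and nearly so within those without (0.39), though with fewer libraries neither passed (adjusted p = 0.0825 and 0.194).

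Among receptors that MYLIP acts on, LRP8, an apolipoprotein E receptor, rose by 0.78 in p53-null cells (adjusted p = 1.72e-09) and by 0.88 in Y220C cells (adjusted p = 1.77e-10) on the log2 scale. VLDLR, the VLDL receptor, was at -0.06 in p53-null cells (adjusted p = 0.332) and at 0.10 in Y220C cells (adjusted p = 0.0444), a call that upper-quartile scaling ended. MYLIP acts on these receptors as proteins, which were not measured here.

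SREBF1 was by far the most abundant of the 7 per length, and it was lower with MS78 by a small amount in both lines. Null DMSO libraries held 658, 628, 699 and 611 CPM and Null MS78 libraries 527, 564, 563 and 575 CPM. Y220C DMSO libraries held 545, 567, 564 and 551 CPM and Y220C MS78 libraries 488, 489, 450 and 484 CPM. MS78 libraries were below the DMSO libraries of their own line without overlap, and Y220C DMSO lay at the level of Null MS78. The decrease was 14.1% in p53-null cells, from 649 ± 39 to 557 ± 21 CPM (n = 4; log2 fold change -0.22, SE 0.04, adjusted p = 0.000307). It was also 14.1% in Y220C cells, from 557 ± 10.0 to 478 ± 19 CPM (-0.22, SE 0.04, adjusted p = 0.000153), where the call was lost within the libraries without PTPRC reads (-0.20, adjusted p = 0.0975). The difference between the responses was 0.00 with an SE of 0.06 (adjusted p = 0.9998), which does not show that they were alike. Over the alternative settings that difference ranged from -0.06 to 0.14.

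SREBF1 makes SREBP-1a from an upstream start and SREBP-1c from a start in the next intron, and as background it is the latter that LXRs induce. The files list 23 SREBF1 transcripts (chr17:17810399-17837002, minus strand), of which SREBF1-201 held 47.46% and SREBF1-202 held 44.13% of the SREBF1 reads. Both begin at exon 1a, and SREBF1-202 has a further exon of 90 bases at chr17:17823518-17823607. Those 90 bases lie within the 101-base exon with which SREBF1-206 begins, the SREBP-1c start (exon 1c), and SREBF1-206 is an incomplete model with 3.07% of the reads. So how many reads are given to SREBF1-202 and how many to exon 1c starts depends on the quantifier's model, and a full-length SREBP-1c model is not among the transcripts matched.

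Transcripts that start at exon 1c took between 1.8% and 4.66% of a library's SREBF1 reads. Their models are short, and per length, in TPM, they made up 16.6% ± 4.0 of SREBF1 in Null DMSO, 14.7% ± 1.4 in Null MS78, 15.9% ± 6.3 in Y220C DMSO and 20.96% ± 4.3 in Y220C MS78 (n = 4). The TPM shares differed by -1.95, 5.06, -0.74 and 6.28 points in the comparisons below, none past the threshold (exact permutation tests, adjusted p = 0.533, 0.343, 0.857 and 0.114, for MS78 in p53-null cells, MS78 in Y220C cells, lines under DMSO and lines under MS78). The share of reads was 2.48%, 3.20%, 3.93% and 4.56% in Null DMSO and 3.56%, 3.08%, 3.55% and 3.14% in Null MS78. In the Y220C line it was 3.08%, 1.8%, 3.63% and 4.35% with DMSO and 4.66%, 4.64%, 3.79% and 3.65% with MS78. The DMSO groups spread more widely and overlapped the MS78 groups. MS78 minus DMSO was -0.21 percentage points in p53-null cells (exact two-sided permutation test, p = 0.686, adjusted over 4 comparisons 0.686) and 0.97 in Y220C cells (exact permutation p = 0.114, adjusted 0.229). Under MS78 the Y220C share was 0.85 points above the null share without overlap (exact permutation p = 0.0286, the smallest that 4 against 4 can give, adjusted 0.114). Under DMSO the difference was -0.33 (exact permutation p = 0.657, adjusted 0.686).

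SREBF1-202 was lower in Y220C than in p53-null cells under DMSO (log2 fold change -0.70, SE 0.13, adjusted p = 0.00141) and under MS78 (-0.75, SE 0.13, adjusted p = 0.00045), while SREBF1-201 was at 0.15 (adjusted p = 0.372) and 0.27 (adjusted p = 0.0533). The latter passed with upper-quartile scaling (0.28, adjusted p = 0.0442) and without Y220C MS78 replicate 3 (0.34, adjusted p = 0.0128). In the same comparisons 13.2% and 22.1% of all 47159 transcripts tested were called, and of 16 SREBF1 transcripts 2 and 1 were. As a description chosen after the values were seen, SREBF1-202 made up 52.9% ± 4.9 of the reads of the pair in Null DMSO and 57.6% ± 2.2 in Null MS78 (n = 4). It made up 38.5% ± 6.5 in Y220C DMSO and 40.2% ± 6.1 in Y220C MS78 (n = 4). With MS78, SREBF1-201 fell in p53-null cells (-0.35, SE 0.09, adjusted p = 0.0373, with 5.66% of transcripts called), a call that was lost with the replicate block (adjusted p = 0.0908), with a term for PTPRC reads (-0.30, adjusted p = 0.127) and without any of 6 single libraries, namely Null DMSO replicate 2, 3 or 4 and Null MS78 replicate 1, 3 or 4 (adjusted p = 0.0538 to 0.117). It was at -0.24 in Y220C cells (adjusted p = 0.112). SREBF1-202 was at -0.09 (adjusted p = 0.879) and -0.14 (adjusted p = 0.56). In Y220C cells the 1 SREBF1 transcript called with MS78 was SREBF1-220, a retained-intron form with 0.07% of the reads (-1.85, adjusted p = 0.0475, 15.1% of transcripts called). It was not called with a term for PTPRC reads, or without Y220C DMSO replicate 1, 3 or 4 or Y220C MS78 replicate 1 or 4. Nor was it called without Null DMSO replicate 2, 3 or 4 or without Null MS78 replicate 1, 2, 3 or 4. For the difference between the responses edgeR called 0 of the 16, with 1 at an unadjusted p under 0.05 and 4.43% of all transcripts called.

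**Figure D3:**
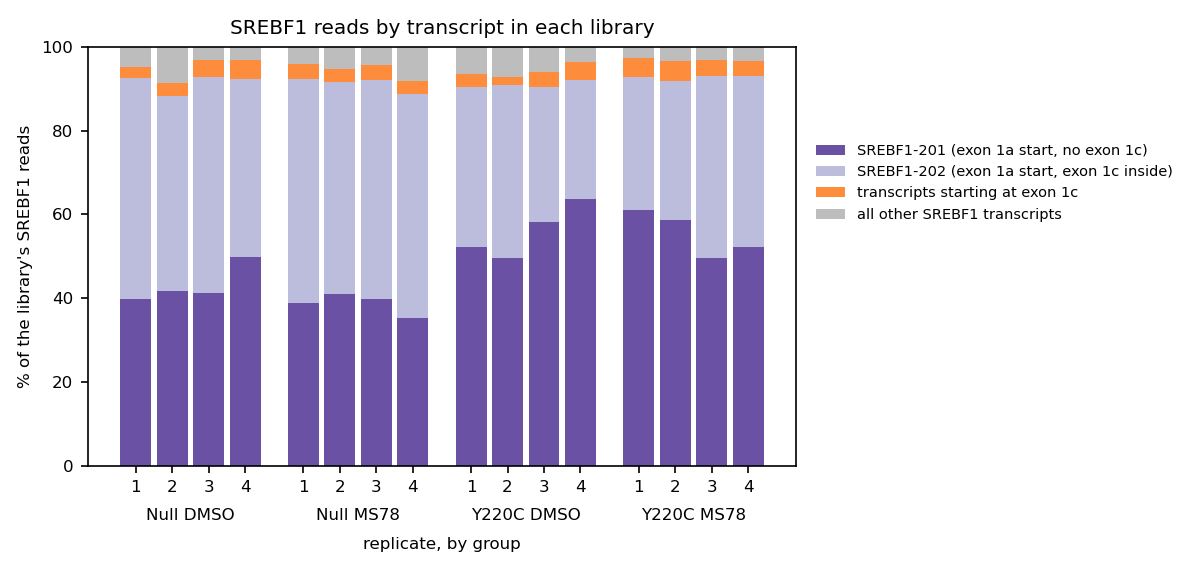
Share of each library's SREBF1 reads (y axis, %) given to SREBF1-201, SREBF1-202, transcripts that begin at exon 1c and all others, for replicates 1 to 4 of each group (x axis). The exon 1c band stays between 1.8% and 4.66%, and SREBF1-202 takes a smaller share in the Y220C groups than in the null groups.

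LPCAT3 puts polyunsaturated fatty acids into membrane phospholipids, and it was the only member that rose in both lines. Null DMSO libraries held 116, 119, 126 and 118 CPM and Null MS78 libraries 151, 145, 154 and 153 CPM. Y220C DMSO libraries held 79.7, 78.5, 80.7 and 84.1 CPM and Y220C MS78 libraries 131, 127, 124 and 127 CPM. Neither pair overlapped, and Y220C MS78 was about at the level of the highest Null DMSO library. The rise was 1.26-fold in p53-null cells, from 119.8 ± 4.2 to 151 ± 3.9 CPM (n = 4; log2 fold change 0.33, SE 0.04, adjusted p = 2.81e-07). In Y220C cells it was 1.57-fold, from 80.8 ± 2.4 to 127 ± 2.7 CPM (0.65, SE 0.04, adjusted p = 6.41e-12). The larger rise in Y220C cells passed the test of the difference (0.32, SE 0.05, adjusted p = 8.05e-05), as it did within the libraries with PTPRC reads (0.30, adjusted p = 0.0259), while within those without the value was 0.37 (adjusted p = 0.098). MYLIP and LPCAT3 were the 2 of 7 members (28.6%, or 33.3% of the 6 without ABCG1) called for that difference, both with a higher value in Y220C cells. Of all genes 26.8% were called (14.4% higher), so their number is near the background.

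Of 6 other lysophospholipid acyltransferases tested, 2 rose and 1 fell in p53-null cells (28.1% of all genes called), and 3 rose and 2 fell in Y220C cells (48.5% called). LPCAT1, which remodels phosphatidylcholine with saturated chains, rose by 0.51 (adjusted p = 6.52e-09) and by 1.57 (adjusted p = 3.41e-17) on the log2 scale. MBOAT7, which acts on phosphatidylinositol, rose by 0.82 and 1.18, and MBOAT1 fell by 0.29 and 0.49. LPCAT1 and MBOAT7 rose more in Y220C cells by the test of the difference (1.06, adjusted p = 6.19e-11, and 0.36, adjusted p = 0.00087).

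The 2 receptor genes moved little. NR1H2, the LXR found in most tissues, had 63.3, 59.2, 59.3 and 55.8 CPM in Null DMSO and 61.4, 64.2, 64.2 and 67.7 CPM in Null MS78, with overlap (0.12, SE 0.05, adjusted p = 0.103). It had 51.04, 52.9, 45.7 and 44.6 CPM in Y220C DMSO and 54.9, 53.7, 55.7 and 55.95 CPM in Y220C MS78, without overlap. The rise in Y220C cells was 1.13-fold (log2 fold change 0.18, SE 0.05, adjusted p = 0.00796), and the call was lost under upper-quartile scaling (0.11, adjusted p = 0.0889), with length-scaled TPM (adjusted p = 0.0607), and within the libraries with PTPRC reads (adjusted p = 0.199) and without them (adjusted p = 0.19). Several genes overlap NR1H2 on the opposite strand, among them NAPSB, and strand use is not known, so its reads could be shared. The same limit holds for LPCAT3 (overlapped by C1S and EMG1), SREBF1 (by RAI1) and ABCA1 (by AL359182.1).

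NR1H3, the LXR of macrophages and liver, had 6.95 to 8.15 CPM in Null DMSO and 6.96 to 7.62 CPM in Null MS78 (-0.02, SE 0.10, adjusted p = 0.927). Y220C DMSO libraries held 9.08, 10.7, 7.42 and 8.04 CPM and Y220C MS78 libraries 6.82, 6.96, 7.51 and 7.46 CPM. The groups overlapped, and Y220C DMSO replicate 2 was the highest of all. The decrease in Y220C cells, from 8.80 ± 1.4 to 7.19 ± 0.35 CPM (n = 4; log2 fold change -0.29, SE 0.10, adjusted p = 0.02), was not called without that library (-0.19, adjusted p = 0.107), nor without Y220C MS78 replicate 1 (-0.27, adjusted p = 0.0541), nor with length-scaled TPM (-0.26, adjusted p = 0.0768). It was also not called within the libraries with PTPRC reads (-0.31, adjusted p = 0.103) or without them (-0.35, adjusted p = 0.272). ACP2 overlaps NR1H3 on the opposite strand.

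Per length, the order of the 7 genes was the same in all groups. In Null DMSO the TPM, a level per transcript length, was 296 ± 21 for SREBF1, 78.7 ± 1.2 for LPCAT3 and 52.0 ± 6.0 for NR1H2 (n = 4). It was 13.4 ± 0.62 for MYLIP, 9.19 ± 0.60 for NR1H3, 4.37 ± 0.14 for ABCA1 and 0.342 ± 0.031 for ABCG1. In Null MS78, MYLIP and NR1H3 were within their spread of each other, at 9.85 ± 1.2 and 9.16 ± 1.2 TPM, so their order there is uncertain. ABCA1 fell to 1.86 ± 0.11 TPM in Null MS78 and to 1.62 ± 0.24 in Y220C MS78.

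Of 13 tested partners and cofactors of the receptors, 2 rose and 3 fell in p53-null cells (28.1% of all genes called) and 4 rose and 4 fell in Y220C cells (48.5% called), with medians of 0.03 and -0.04. RXRA, the retinoid X receptor that pairs with LXR, was at 0.07 and -0.03 with MS78, and RXRG was at 0 reads in all libraries. RXRA was lower in Y220C than in p53-null cells, by 0.79 under DMSO (adjusted p = 1.2e-08) and by 0.89 under MS78 (adjusted p = 1.07e-09) on the log2 scale. NRIP1, a nuclear receptor cofactor, fell in p53-null cells, from 23.5 ± 2.0 to 19.9 ± 1.6 CPM (n = 4; log2 fold change -0.23, adjusted p = 0.0267), and rose in Y220C cells, from 36.8 ± 3.8 to 84.6 ± 3.8 CPM (1.2, adjusted p = 6.61e-12). The difference of these responses was 1.43 (SE 0.10, adjusted p = 2.48e-09). GPS2, part of a corepressor complex, fell in Y220C cells by 0.29 (adjusted p = 0.00109), and was at 0.03 (adjusted p = 0.766) in p53-null cells.

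Other known LXR targets did not follow ABCA1. Of 18 listed, 7 were not tested, among them ABCG5, ABCG8, CETP and CYP7A1 with 0 to 3 reads. Of the 11 tested, 6 rose and 0 fell in p53-null cells (edgeR, median 0.35, 14.8% of all genes higher and 13.3% lower). In Y220C cells 6 rose and 2 fell (median 0.45, 24.9% of all genes higher and 23.6% lower). FASN, the fatty acid synthase, rose from 684 ± 22 to 4008 ± 110 CPM in p53-null cells (n = 4; 2.55, adjusted p = 1e-20) and from 759.9 ± 32 to 7284 ± 340 CPM in Y220C cells (3.26, adjusted p = 9.38e-23). SCD, the stearoyl-CoA desaturase, rose by 1.54 and 1.59, and PNPLA3, a lipid droplet enzyme, by 1.44 and 1.26. These 3 genes are also targets of SREBPs. The apolipoprotein gene APOE rose by 0.87 (adjusted p = 2.02e-09) and 0.53 (adjusted p = 5.44e-07). Among the 2 that fell in Y220C cells was PLTP, a phospholipid transfer protein gene, by 0.34, and in p53-null cells it was at 0.06 (adjusted p = 0.282).

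Among genes that make or remove LXR ligands, CH25H, CYP27A1, CYP46A1, CYP11A1 and CYP7B1 were nearly silent, with between 0 and 7 reads, and were not tested. Of 6 tested, 3 rose in p53-null cells (14.8% of all genes higher and 13.3% lower), and 4 rose and 1, HSD3B7, fell in Y220C cells (24.9% and 23.6%). SQLE and LSS, sterol synthesis enzymes at the steps around epoxysterols, which can be LXR ligands, rose in both lines. SQLE rose by 2.06 and 2.36 and LSS by 1.81 and 1.64 on the log2 scale. Sterol levels were not measured here.

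Among other genes of sterol transport and storage, 8 of 17 tested rose and 1 fell in p53-null cells (14.8% of all genes higher and 13.3% lower), and 12 rose and 2 fell in Y220C cells (24.9% and 23.6%), with medians of 0.16 and 0.36. NPC1, which exports cholesterol from lysosomes, rose from 65.5 ± 1.9 to 111 ± 2.4 CPM in p53-null cells (n = 4; 0.76, adjusted p = 9.64e-13) and from 108 ± 3.7 to 271 ± 4.4 CPM in Y220C cells (1.33, adjusted p = 1.5e-17). LIPA, the lysosomal acid lipase, rose by 0.82 and 1.03. LCAT, which esterifies plasma cholesterol, was at -0.20 in p53-null cells (adjusted p = 0.624) and rose by 1.00 in Y220C cells (adjusted p = 0.00143). CAV1, the caveolin of cholesterol-rich membrane pits, fell in both lines.

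Targets of SREBPs rose while SREBF1's own message fell. Of 9 SREBP-2 targets tested, 9 rose in each line (14.8% of all genes in p53-null and 24.9% in Y220C cells), with medians of 2.75 and 3.07, and 9 rose within either set of libraries split by PTPRC. HMGCS1, MVD and MSMO1, enzymes of cholesterol synthesis, rose by 3.37, 3.30 and 2.92 in p53-null cells and by 3.62, 3.48 and 3.33 in Y220C cells. Of 11 fatty acid genes known as SREBP-1 targets, 10 rose in p53-null cells and 11 in Y220C cells, with medians of 0.64 and 1.10. Among them, ACSS2 rose by 2.32 and 2.71 and ACLY by 1.93 and 2.06. Of 6 genes of SREBP processing, 4 rose and 1, MBTPS2, fell in p53-null cells (28.1% of all genes called) and 4 rose in Y220C cells (48.5% called), where upper-quartile scaling also called 2 lower. INSIG1, which retains SREBPs in the endoplasmic reticulum and is itself a target, rose by 2.78 and 2.93. SREBF2 rose by 0.66 and 0.67, so the messages of the 2 SREBP genes went in opposite directions in both lines.

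**Figure D4:**
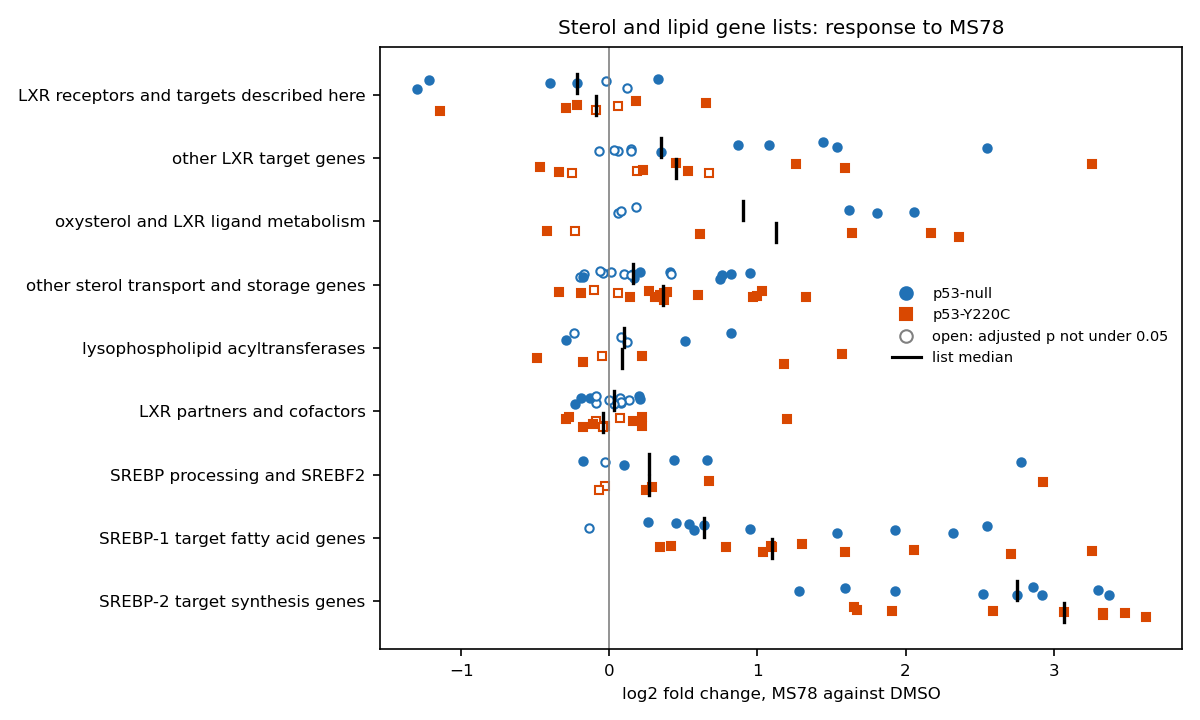
Log2 fold change with MS78 against DMSO (x axis) of the tested genes of each list, in p53-null cells (circles) and Y220C cells (squares), with open symbols where the adjusted p was not under 0.05 and black bars for list medians. ABCA1 of both lines and ABCG1 of p53-null cells lie at the far left, and SREBP-2 targets lie to the right, with medians of 2.75 and 3.07.

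The lines differed in these genes without MS78 as well. Under DMSO 6 of the 7 (85.7%), or 5 of the 6 without ABCG1 (83.3%), were called, against 50.2% of all genes. Without ABCG1, 4 were lower in Y220C cells (25.5% of all genes) and 1 was higher (24.7%). LPCAT3 was lower by 0.57 (SE 0.04, adjusted p = 8.38e-11), NR1H2 by 0.29 (adjusted p = 0.000112), ABCA1 by 0.29 (adjusted p = 0.00028) and SREBF1 by 0.22 (adjusted p = 0.000129) on the log2 scale, each without overlap between groups, as was the case for 43.6% of all genes. ABCA1's call was lost within the libraries with PTPRC reads (-0.27, adjusted p = 0.142). ABCG1, again as a description, was at -1.55, and in the fit with no filter it was at -1.57 (SE 0.50, adjusted p = 0.0106). It was not called with length-scaled TPM (-1.32, adjusted p = 0.0578) or within the libraries with PTPRC reads (-1.98, adjusted p = 0.195). NR1H3 was higher by 0.26 (adjusted p = 0.0337), with overlapping groups and a call lost without Y220C DMSO replicate 2 (0.15, adjusted p = 0.173) and in 10 of the other alternatives, among them the libraries with PTPRC reads (0.37, adjusted p = 0.128) and those without (0.22, adjusted p = 0.249). Under MS78 5 of 7 were called (71.4%, near the 61.8% of all genes), or 5 of the 6 without ABCG1 (83.3%). Of all genes 30.7% were higher and 31.2% lower, and 56.4% had groups that did not overlap. MYLIP was then higher in Y220C cells by 0.33 (adjusted p = 0.000198), and LPCAT3, SREBF1, NR1H2 and ABCA1 were lower by 0.25, 0.22, 0.22 and 0.21. ABCA1's call there was lost without Y220C MS78 replicate 3 (-0.17, adjusted p = 0.0504), with length-scaled TPM (-0.16, adjusted p = 0.116) and within the libraries with PTPRC reads (-0.20, adjusted p = 0.053). Within the libraries without PTPRC reads, 1 per group under MS78, edgeR called 0 of the 7, with 1 at an unadjusted p under 0.05. The values there were 0.25 for MYLIP (adjusted p = 0.173), -0.20 for LPCAT3 (0.122), -0.10 for SREBF1 (0.462), -0.15 for NR1H2 (0.409) and -0.19 for ABCA1 (0.394).

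Profiles most like those of 4 members were found among 10604 protein-coding genes by the root mean square difference of centred log2 CPM over the 16 libraries. For ABCA1, whose own spread was 0.605, the nearest were BRCA1 (0.127), TOP2A (0.156) and CDK1 (0.156), genes of DNA repair, chromosome structure and the cell cycle. Their log2 fold changes were -0.92, -0.88 and -1.09 in p53-null cells and -1.14, -1.32 and -1.08 in Y220C cells. For MYLIP, with a spread of 0.169, PIM1, a kinase gene (0.0851), and ZNF689 (0.0855) were near, which fell in p53-null cells by 0.30 and 0.28 and were at 0.12 and 0.05 in Y220C cells. For SREBF1 (spread 0.164) they were COG4 (0.0531), LOXL2 (0.0597) and VANGL1 (0.0601). For ABCG1 (spread 0.638) PIDD1 (0.385), RFC5 (0.389) and BEND3 (0.398) were nearest, and its read counts were low.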

How the data were processed

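Poly(A) RNA of 16 libraries was read from the deposited transcript tables. The authors' tables give an estimated count for each transcript, without normalization and often fractional, per the file headers. TPM values were made by the authors, per the file headers, as were the transcript length and effective length in other columns. The submitters' processing notes name FastQC 0.11.8 and hg38. Quantifier version, transcript annotation and use of strand: not given in the sources used here.

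Estimated counts were summed over the transcripts of each gene of GENCODE 29 (97.82% of 197653 transcripts matched, and 0.278% to 0.325% of a library's reads did not) and rounded. After filterByExpr and TMM scaling, genes were tested by the quasi-likelihood F-test of edgeR 4.0.16 in R 4.3.3, in 1 fit of all 16 libraries with 12 residual degrees of freedom. P-values were adjusted by Benjamini-Hochberg over the 15687 genes tested, with a threshold of 0.05. SE was taken as |log2 fold change| over root F. CPM is relative to the TMM-scaled library total. SREBF1 transcripts were tested in the same way over 47159 transcripts, and first-exon shares by exact permutation tests (Python 3.11.15). Alternatives were DESeq2 1.42.0, upper-quartile scaling, other filters, length-scaled TPM, a replicate block, library subsets and leaving out each library. On simulated counts for MS78 against DMSO in p53-null cells (15456 genes), the test recovered 75% of 100 genes changed 1.5-fold and 87% of 100 changed 2-fold, with 9 false calls.

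Same-numbered DMSO and MS78 libraries of a line did not deviate from their group means together (r = -0.50 to -0.04). Leukocyte transcripts were in only 1 library of each such pair, so these values cannot tell whether the numbers paired cultures. Between the lines under MS78, same-numbered libraries deviated from their group means together (r = 0.15 to 0.53), as they did under DMSO except for number 3 (r = -0.06). A replicate block changed no call among the 7 genes. That block had a common effect per number for both treatments, so it does not account for deviations that the lines share within a treatment. Library totals were 20.3 M to 27.7 M reads, and 3 reads were taken as the limit that a count of 0 allows, for counting error only. Replicates of a group differed by more than sampling noise (chi-square per gene 2.53 to 11.3).

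The genes described and all lists were chosen with earlier results of these data known. The 7 genes are named whatever their values. From each list up to 3 members were named, those past 0.05 with the greatest change under MS78 and a mean of at least 1 CPM, and for 4 of the 7 the 3 protein-coding genes (mean of at least 5 CPM) with the nearest profile. Any other gene named for a small count was picked after its values had been seen. Motifs were counted on both strands of RefSeq promoter windows (GRCh38.p14). The level of the p53 transgene and those of some genes the naming rule selects are not reported here.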

Additional observations from a re-analysis of the deposited data

Results flagged for a closer look

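SREBF1 in Y220C MS78 replicate 3 was at 450 CPM, apart from the other 3 libraries of its group at 484 to 489 CPM. Its gap to the nearest of them was 0.86 of the whole range, above Dixon's 95% critical value for 4 samples. Of 36 groups examined this was the only such case, and chance gives about 1 in 20.

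MYLIP responded differently to MS78 in the 2 lines by the interaction test, with a difference of 0.46 on the log2 scale. LPCAT3 also did, with a difference of 0.32. Leukocyte transcripts were present in 3 of 4 MS78 libraries and 1 of 4 DMSO libraries of both lines, and their part in these values was not tested beyond the fits within each set of libraries.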

How the results depend on the processing

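Of the alternative values for the 7 genes, 607 kept their direction and their side of the threshold, 39 lost a call, 1 gained one and 24 changed sign. In each line ABCA1 and LPCAT3 kept their calls for MS78 against DMSO in all 18 alternatives, with log2 fold changes of -1.24 to -1.18 (p53-null) and -1.21 to -1.07 (Y220C) for ABCA1 and 0.32 to 0.37 and 0.59 to 0.69 for LPCAT3. The number of members called for MS78 in Y220C cells, 5, was 3 with length-scaled TPM, 3 in the libraries with PTPRC reads and 2 in those without. For the difference of the responses, 2, it was 1 with and 0 without (edgeR, 2 at an unadjusted p under 0.05). Between the lines it was 3 with under DMSO, in place of 6, and 0 without under MS78, in place of 5 (edgeR, 1 at an unadjusted p under 0.05). These sets hold 8 libraries each with 4 residual degrees of freedom, and a group with 1 library was assumed to vary like the others. Over all genes, the 4402 calls for MS78 in p53-null cells became 2854 with length-scaled TPM, 2346 with PTPRC reads and 1070 without, and the 4197 for the difference became 2751, 1870 and 411. The 7611 for MS78 in Y220C cells became 3490 without, the 7875 between lines under DMSO 3817 with, and the 9699 under MS78 4184 without. Upper-quartile scaling moved the share of calls that were higher from 51.4% to 38.7% for MS78 in Y220C cells and from 53.8% to 37.4% for the difference.

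Values near 0 changed sign. NR1H3 with MS78 in p53-null cells was 0.02 with length-scaled TPM, 0.03 in libraries with PTPRC reads and 0.02 without. MYLIP in Y220C cells was -0.004 under upper-quartile scaling and -0.04 without PTPRC reads, and ABCG1 there was 0.62 with length-scaled TPM and 0.45 with PTPRC reads. The SREBF1 difference was -0.06 under upper-quartile scaling, -0.01 with no filter and -0.0011 with a filter of 1 CPM, NR1H3 between lines under MS78 was 0.04 with PTPRC reads, and SREBF1-206 in p53-null cells was 0.01 with a term for PTPRC reads. ABCG1 was not tested under the 1 CPM filter. The cause of these changes was not tested.

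Leaving out each library in turn gave 5 to 6, 4 to 5, 2, 5 to 6 and 4 to 5 members called, in the order MS78 in p53-null cells, MS78 in Y220C cells, difference, lines under DMSO and lines under MS78. It gave 3688 to 4054, 6966 to 7334, 3685 to 4250, 7270 to 7798 and 9238 to 9455 genes. The exon 1c share differences ranged from -0.56 to 0.13, 0.50 to 1.35, -0.70 to 0.14 and 0.69 to 1.03 points. Signs changed for NR1H3 in p53-null cells (-0.04 to 0.03) and between lines under MS78 (-0.04 to 0.01), ABCG1 in Y220C cells (-0.49 to 0.13), the SREBF1 difference (-0.03 to 0.03), SREBF1-206 in p53-null (-0.30 to 0.02) and Y220C cells (-0.08 to 0.18) and the SREBF1-202 difference (-0.14 to 0.06). Calls among SREBF1 transcripts, 5 over all comparisons, were 2 to 7, and 3 with a term for PTPRC reads.

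The replicate block, shared by both treatments, left the members called at 5, 5, 2, 6 and 5. It gave 4251, 7442, 4060, 7774 and 9623 genes called, and 4 calls among SREBF1 transcripts. Same-numbered DMSO and MS78 libraries correlated at -0.50 to -0.04, and 0 DMSO libraries correlated best with their own number. Paired exact tests of the exon 1c shares, which cannot go below 0.125, gave adjusted p of 0.5 to 0.625.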
